A study of Homo sapiens with 6 samples.

Results

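The genes described here were 10 transcripts of the p53 response and of apoptosis, ZMAT3, BBC3, CDKN1A, MDM2, BAX, FAS, PMAIP1, RRM2B, TP53I3 and SESN1, among 31410 gene symbols measured on each array. They were given by name and were chosen by their known roles after their intensities in these samples had been seen. Their differences between processed and live samples and between lines are therefore a description, and no p-value is given for any of them. Those above the intensity limit below were part of the fits over all genes, and nothing is read from whether they were called there. All 10 were found in the table. 8 of them reached an intensity of 40 on at least 3 of the 6 arrays, the limit used for every gene, and MDM2 and FAS did so on none.

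The samples were 6 RNA preparations of stage 6 cultures, the last stage of a stepwise pancreatic differentiation of human embryonic stem cells in which insulin-expressing cells are present. The stem cell lines were H1 and HUES8, both established, and no genetic modification or DNA-damaging agent is named for any group. H1 supplied differentiations 1 and 2 and HUES8 supplied differentiation 3. From each differentiation came a live sample, whose RNA came from fresh cells with the RNAeasy kit, and a processed one, which had been fixed with paraformaldehyde, permeabilized with saponin, stained, passed through the sorter with every cell collected, and extracted with a modified RecoverAll kit. The processed samples therefore differ from the live ones in fixation, handling, sorting and extraction kit together, and these cannot be told apart. HUES8 was represented by 1 differentiation, so that line and differentiation cannot be told apart either. Transcripts of islet hormones were present in these bulk cultures, with intensities from 1898 to 5069 for INS, from 978 to 3634 for GCG and from 2602 to 7339 for SST. Markers of other cell types are given below. Median intensity lay between 22.5 and 27.4 on the 6 arrays, and between 12297 and 12698 symbols per array reached 40.

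The transcription factor p53 is held at a low level by the ubiquitin ligase MDM2 and accumulates when DNA is damaged or cells are otherwise stressed. It then activates genes that arrest the cell cycle, repair DNA, limit oxidative damage or trigger apoptosis, MDM2 itself among them, which closes a feedback loop. Apoptosis through mitochondria is decided by the BCL2 family, in which BH3-only proteins such as BBC3 (PUMA) and PMAIP1 (NOXA) neutralize protective members and let BAX and BAK1 open the outer membrane. Several of these genes also answer to other factors, and PMAIP1 is a known target of the stress factor ATF4.

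Binding of p53 is known at an element of 2 decamers set head to tail. Windows of 250 bases before to 50 bases after each annotated start site (RefSeq, GRCh38.p14) were searched for the 20-base p53 consensus with no spacer, its central 4 bases intact in both decamers and at most 3 mismatches elsewhere, a pattern that reads alike on both strands. It was found in 0.427% of 35114 windows and, among the 17 windows that matched 9 of the 10 genes (all but RRM2B), in 1 window of FAS and 1 of SESN1. The windows are shown because SESN1 is measured below and FAS is the death receptor of the list, and capitals mark the element, 5′ to 3′ on the gene's strand. FAS lies at chr10:88991289-88991348 (plus strand, 2 mismatches, element 122 to 103 bases upstream of the start site of that window). SESN1 lies at chr6:109008998-109009057 (minus strand, 3 mismatches, element 49 to 30 bases upstream of the start site of that window). Both genes have other annotated start sites, and each element lies downstream of those.
FAS: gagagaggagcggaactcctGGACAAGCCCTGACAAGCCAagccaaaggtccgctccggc
SESN1: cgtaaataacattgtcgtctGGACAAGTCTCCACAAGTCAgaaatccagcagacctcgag
The window of PMAIP1, the gene that differed most between the lines, held no such element, which is not particular to it, since only 2 of the 9 genes held one. It held TGACG, the core of sites bound by the CREB and ATF family, read on the opposite strand at 55 to 51 bases upstream of the start, where CGTCA is in capitals (chr18:59899921-59899965, plus strand). The same letters on either strand occurred in 24.6% of all windows. Counted by gene, they occurred in 3 of the 9, some of which had several windows. A match of 5 bases is only a description, and use of the site was not tested.
PMAIP1: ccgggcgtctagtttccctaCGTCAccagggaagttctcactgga

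The first comparison asked whether fixation, staining and sorting changed the measured level of these stress genes. For the 8 genes above the limit, the median of the mean log2 differences, processed minus live, was 0.21, against -0.03 for all 12653 genes tested. The medians were 0.13, 0.27 and 0.18 in pairs 1, 2 and 3, where all genes stood at -0.00011, -0.07 and -0.0066. The differences of ZMAT3, CDKN1A, BAX and SESN1 were above 0 in 3 of 3 pairs, that is 4 of the 8 genes, while 13.7% of all genes tested were higher in 3 of 3 pairs and 19.8% were lower. With arrays brought to a common median, ZMAT3 was above 0 in 2 of 3 pairs. For 0 of the 8 were all processed arrays above all live arrays, against 2.4% of all genes. Since the list was chosen with this comparison known, nothing is read from these shares. The paired fit (limma with the differentiation as a block and Benjamini-Hochberg adjustment) called 0 of the 12653 genes, hence 0% as background and 0 of the 8, and the smallest adjusted p over all genes was 0.216. At an unadjusted p under 0.05 it had 1221 genes. Differences are of log2(intensity + 20) throughout, a scale that understates those of dim genes, and with intensities scaled to the median of all symbols the median of the 8 genes came to 0.31 while that of all genes moved from -0.03 to 0.07.

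**Figure D1:**
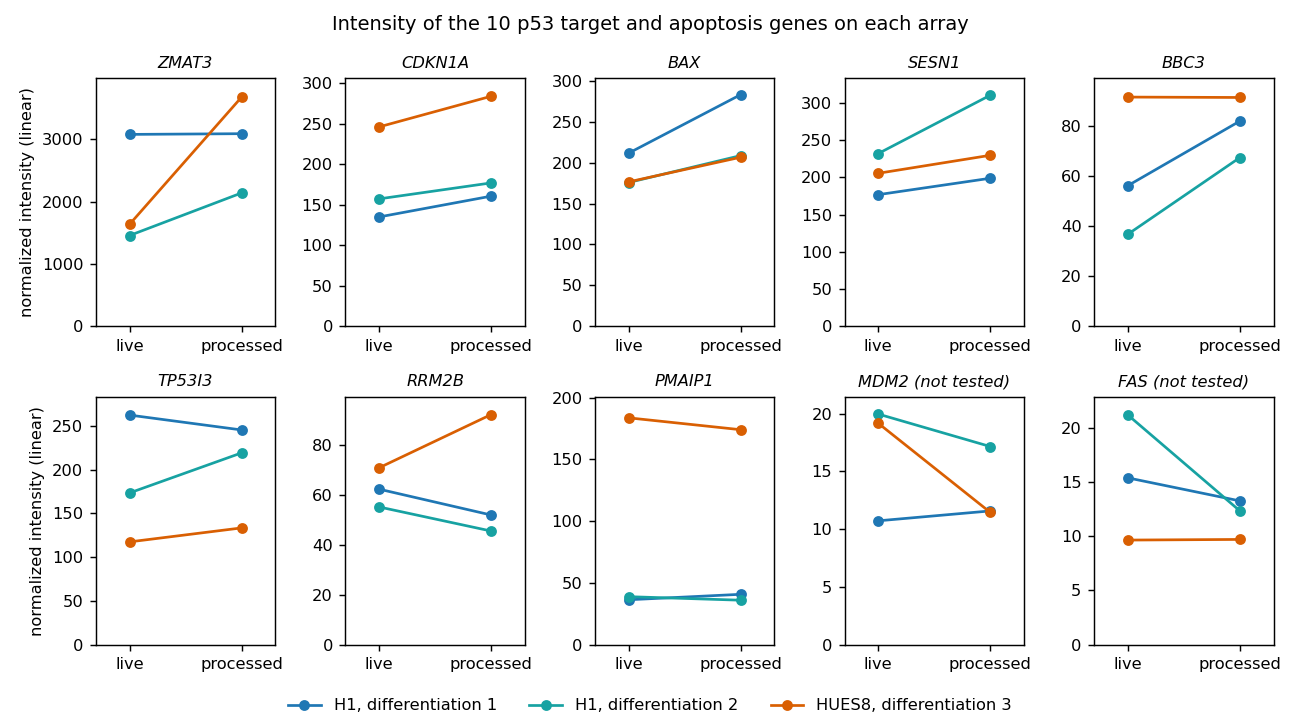
Normalized intensity on a linear scale (vertical axis, from 0, a different range in each panel) of the 10 genes in live and processed samples. Each line joins the 2 samples of a differentiation. ZMAT3 lay between 1454 and 3678, PMAIP1 was at most 40.7 in H1 and at least 174 in HUES8, and MDM2 and FAS were at most 21.2 on every array.

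Among the genes that slow the cell cycle or adjust growth, CDKN1A encodes p21, the cyclin-dependent kinase inhibitor through which p53 arrests cells. Its intensity in live and processed samples was 135 and 160.4 in pair 1, 157 and 177 in pair 2 and 246 and 284 in the HUES8 pair. The processed sample was the higher one in each pair, by 0.22, 0.15 and 0.19 (mean 0.19±0.03, SD, n = 3 pairs), a ratio of 1.14. The live and processed ranges overlapped, and both HUES8 samples were above all H1 samples. SESN1 encodes a sestrin, a p53 target that restrains the growth kinase mTORC1. It measured 177 and 199 in pair 1, 232 and 311 in pair 2 and 206 and 229.8 in the HUES8 pair, a mean difference of 0.23±0.14. The pair with the highest live value also had the largest difference, 0.39.

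ZMAT3, a p53 target coding for a zinc finger RNA-binding protein, had the largest mean difference of the 10 and also the largest spread. Live and processed samples stood at 3079 and 3090.5 in pair 1, 1454 and 2138 in pair 2 and 1633 and 3678 in the HUES8 pair. The differences of 0.0054, 0.55 and 1.16 averaged 0.57±0.58, so the SD was as large as the mean. Leaving out the HUES8 pair brought it to 0.28 and leaving out pair 1 to 0.86.

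Of the genes that act at mitochondria, BAX, the effector that permeabilizes the outer membrane, measured 212 and 283 in pair 1, 176 and 209 in pair 2 and 177 and 207 in the HUES8 pair. The differences were 0.39, 0.22 and 0.21 (mean 0.27±0.10), each pair being higher after processing. BBC3, one of the BH3-only activators of apoptosis, measured 56.2 and 82.0 in pair 1, 36.7 and 67.4 in pair 2 and 91.6 and 91.5 in the HUES8 pair. It was higher after processing in both H1 pairs, by 0.42 and 0.62, and level in HUES8 (-0.0020), for a mean of 0.35±0.32. The live sample of pair 2 lay under 40, so the difference of that pair rests on a dim value. PMAIP1, the other BH3-only gene, averaged -0.01±0.10, with 36.2 and 40.7 in pair 1, 38.7 and 35.9 in pair 2 and 184 and 174 in the HUES8 pair. The sign of that mean turned after quantile normalization and with intensities scaled to the median of all symbols, where it was at most 0.07, and without pair 2 or pair 3 (0.02 each).

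RRM2B supplies the p53-inducible subunit of ribonucleotide reductase, which makes deoxynucleotides for DNA repair. Its intensities were 62.3 and 52.0 in pair 1, 55.2 and 45.5 in pair 2 and 70.9 and 92.3 in the HUES8 pair. Both H1 pairs were lower after processing (-0.19 and -0.20) and the HUES8 pair was higher (0.30), and the mean of -0.03±0.29 turned to 0.06 under the scaling to all symbols and to 0.05 and 0.06 without pair 1 and pair 2. TP53I3, a quinone oxidoreductase gene induced by p53, averaged 0.13±0.20, with 262 and 245 in pair 1, 173 and 219 in pair 2 and 117 and 133 in the HUES8 pair. It was lower after processing in pair 1 and higher in the others. MDM2, the ligase that degrades p53, ranged from 10.7 to 19.97 and FAS, the death receptor, from 9.6 to 21.2. Both were below the limit on every array, and no difference is given for them.

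**Figure D2:**
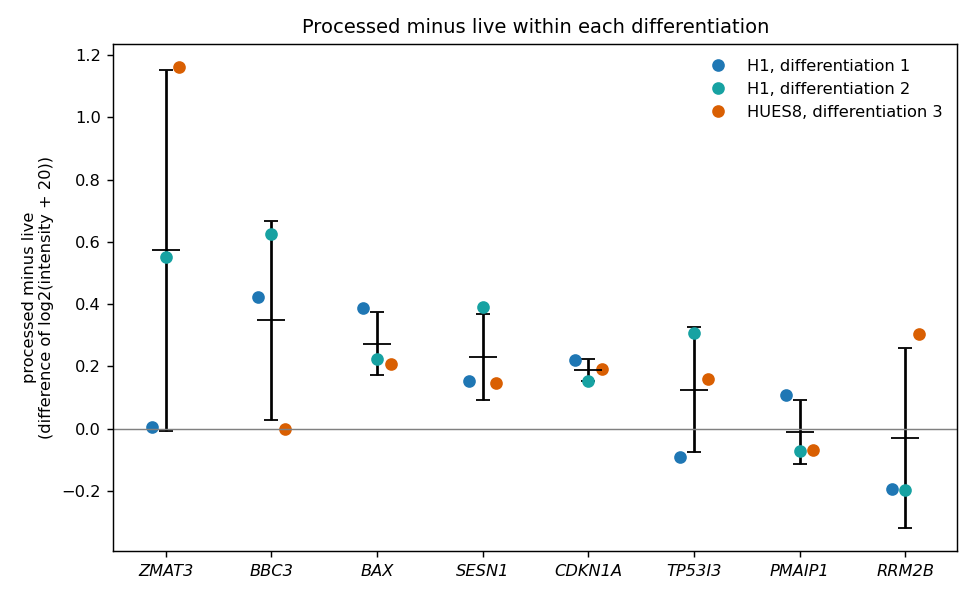
Processed minus live on the log2(intensity + 20) scale for the 8 genes above the limit. Points are the 3 differentiations and the bar with whiskers is the mean ± SD (n = 3 pairs). CDKN1A had the tightest values (0.15 to 0.22), and ZMAT3 the widest (0.0054 to 1.16).

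Whether the processing acted differently in the lines was tested across all genes on the differences within pairs. That fit called 33 of 12653 genes (0.261%), none of them among the 8 genes or among the other pathway genes below. It has 1 residual degree of freedom, from the H1 pairs. Limma estimated infinite prior degrees of freedom for it, so all genes shared 1 common variance. The spread of a gene between its own H1 pairs therefore had no weight in that fit.

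A wider set of 128 genes of the p53 pathway and of apoptosis, in 8 lists, shows what surrounded the 10, which it leaves out. All 128 were in the table, 5 of them under an older symbol, and 97 were tested. Their median difference between processed and live was -0.01. In 3 of 3 pairs 16 were higher (16.5%, against 13.7% of all genes tested) and 15 lower (15.5%, against 19.8%). Limma called 0 in either direction (0 of 12653 genes overall). At an unadjusted p under 0.05 there were 3 higher and 1 lower of the 97, and 619 higher and 602 lower of the 12653. MDM4, the relative of MDM2 that also restrains p53, reached 40 on 2 arrays only and was not tested (26.9 to 55.1).

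The largest mean differences of these genes, processed minus live, belonged to BIRC3, an inhibitor of apoptosis (0.75±0.76), HIPK2, a kinase that phosphorylates p53 (0.58±1.22), and BIRC6 (0.47±0.29), which were not called (adjusted p from 0.439 to 0.610). BIRC3 went from 372 to 499 in pair 1, from 381 to 452 in pair 2 and from 200.1 to 657 in the HUES8 pair. The lowest were GADD45A, a p53 target that answers to DNA damage (-0.40±0.19), ZMAT2 (-0.33±0.42) and PLK1, a mitotic kinase (-0.31±0.29). Without pair 2, which leaves 2 pairs, 5 of the 97 were called and 5.44% of all genes: BIRC3 (1.01), HIPK2 (1.26), EP300 (0.64) and BIRC6 (0.57) were higher and ZMAT2 (-0.54) lower, and 0 of the 8 genes were called. Without pair 1 or without pair 3, 0 of the 97 were called. The calls thus depended on which pair was left out, and nothing further is read from them.

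The lists did not share a direction. Medians of processed minus live were 0.03 for p53 and its regulators (18 genes), 0.0020 for other p53 targets (25), -0.09 for pro-apoptotic BCL2 members (7), 0.09 for protective ones (4), -0.0075 for the apoptosome, caspases and their inhibitors (17), 0.11 for the death receptor pathway (7), -0.10 for relatives of the 10 genes (8) and -0.03 for cell cycle genes that are silenced downstream of p21 (11). MCL1, a protective BCL2 member, was 0.32±0.06, above 0 in 3 of 3 pairs (adjusted p = 0.501). BID, which links death receptors to mitochondria, was -0.25±0.10, below 0 in 3 of 3 pairs (adjusted p = 0.555). Summed levels of cell type markers were lower in the processed sample of 3 of 3 pairs for 10 islet genes (30692 to 28477, 25962 to 20782 and 27277 to 25704), for 8 mesenchymal genes (5421 to 5353, 9204 to 7903 and 7725 to 7483) and for 8 neural genes (4842 to 4839, 3176 to 2631 and 7717 to 5742). Of the islet genes, 5 of 10 were lower in 3 of 3 pairs, where the share over all genes was 19.8%. The sum of 8 pluripotency genes was lower in 3 of 3 pairs too (3441 to 3113, 4379 to 3666 and 5581 to 4807). So was that of 12 genes of the integrated stress response (10910.5 to 10134, 9351 to 7420 and 20176 to 19581). The fall was therefore not particular to the islet, mesenchymal and neural genes. The sums were not scaled by array. The median intensity of all symbols was lower after processing in 3 of 3 pairs as well (24.4 to 23.0, 27.4 to 23.2 and 22.8 to 22.5). Over the genes tested, the median log2 value fell in pair 2 (7.64 to 7.61) and rose in pairs 1 and 3. The sum of 12 liver and gut genes was higher after processing in pairs 1 and 3 and lower in pair 2. The part of these markers in the differences above was not tested.

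The second comparison was between the cultures of the lines, over the means of live and processed samples. In bulk samples fewer cells of a type and less RNA per cell cannot be told apart. The median difference of the 8 genes, HUES8 minus H1, was 0.27, against 0.02 for all genes tested, and it was 0.013 over the 6 genes that reached 40 on all arrays, 0.11 in live samples, 0.38 in processed samples and 0.05 over all 10 genes with no filter. The arrays of HUES8 lay above all H1 arrays for PMAIP1, CDKN1A, BBC3 and RRM2B and below them for TP53I3, while ZMAT3, BAX and SESN1 overlapped. Among all genes tested, 18.8% lay above and 18.5% below without overlap. Limma called 219 genes (1.73%), 62 higher (0.49%) and 157 lower (1.24%) in HUES8, and 1 of the 8, PMAIP1, was among the higher ones. Nothing is read from that count, since the comparison belongs to the rule of the list.

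PMAIP1 differed most. Its 4 H1 arrays read 36.2, 40.7, 38.7 and 35.9, and its HUES8 arrays 184 in the live and 174 in the processed sample. The log2 difference was 1.78, and the H1 differentiations were 0.03 apart, a difference between values near the limit that says little of their spread. As 3 of the 4 H1 arrays lay under 40, the fold is given as a bound: with those arrays set to 40, PMAIP1 was at least 4.45-fold higher in HUES8. The gene passed the limit through the HUES8 arrays and 1 H1 array, so its place among the genes above the limit depended on its HUES8 values. The log2 difference was 1.82 between live and 1.74 between processed samples, and 1.38 with an offset of 50.

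CDKN1A was also higher in HUES8, with 246 and 284 against 135 to 177 on the H1 arrays, a difference of 0.69 (1.61-fold) where the H1 differentiations were 0.16 apart. BBC3 was 0.50 higher, but the live samples gave 0.76, with 1 of their H1 arrays under 40, and the processed ones 0.24, and the H1 differentiations were 0.32 apart. RRM2B was 0.46 higher, with 70.9 and 92.3 against 45.5 to 62.3 in H1. Here the processed samples gave the larger value, 0.71, and the live ones 0.21.

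TP53I3 went the other way, with 117 and 133 in HUES8 against 173 to 262 in H1, a difference of -0.74 (1.67-fold lower), while the H1 differentiations were 0.35 apart. BAX (-0.17), ZMAT3 (0.07) and SESN1 (-0.04) differed less between the lines than between the H1 differentiations, where differentiation 2 minus 1 was -0.33, -0.80 and 0.48. The sign of SESN1 turned to 0.06 under the scaling to all symbols, and those of ZMAT3 and SESN1 also turned in live samples only (-0.37 and 0.02) and without H1 differentiation 2 (-0.33 and 0.19).

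**Figure D3:**
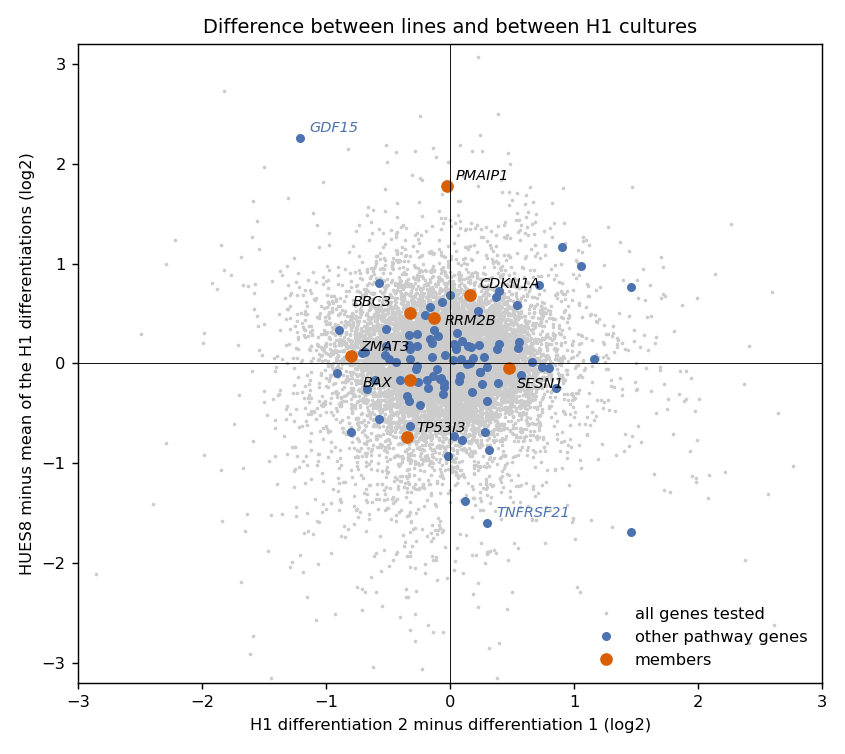
Each point is a gene tested, with the difference between the H1 differentiations on the horizontal axis and HUES8 minus the H1 mean on the vertical axis, both of log2(intensity + 20). PMAIP1 lies at 1.78 on the vertical and -0.03 on the horizontal axis, and GDF15 lies at 2.26 and -1.21. Both had H1 arrays under 40, where differences are compressed, and 18 genes lie outside the axes.

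The other pathway genes were tested in the same fit, and 2 of 97 were called, where 1.73% of all genes tested were called. GDF15, a secreted stress cytokine induced by p53 and by other stress factors, was higher in HUES8 (limma, adjusted p = 0.0097), with 348 and 444 against 102 to 120.02 in H1 differentiation 1 and 34.6 to 38.8 in H1 differentiation 2. With the dim arrays set to 40 it was at least 5.90-fold higher, although the H1 cultures were 1.21 apart, and it was not called in live samples alone (adjusted p = 0.0889, range over 9 settings 0.00573 to 0.900). TNFRSF21, death receptor 6, was lower (-1.59, 95% interval -2.34 to -0.85, adjusted p = 0.0261), with 288 and 340 in HUES8 against 836 to 1216 in H1. It was called in 4 of 10 settings, and not, for example, after quantile normalization (adjusted p = 0.0532, range over settings 0.0202 to 0.720).

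In the list of p53 and its regulators, TP63, a related transcription factor that marks basal epithelia, had the highest value (0.97, adjusted p = 0.395, the H1 cultures being 1.06 apart) and PPP1R13B, the p53 cofactor ASPP1, the lowest (-1.38, adjusted p = 0.0574). PPP1R13B measured 101 and 105 in HUES8 against 253 to 322 in H1, and it was called in 2 alternatives, after scaling the arrays to a common median and in a fit of all 6 arrays with a random block. In the remaining p53 targets IGFBP3, which binds insulin-like growth factors, was lowest (-1.69, adjusted p = 0.0884), with H1 cultures 1.46 apart.

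The BCL2 family held 0 called genes of 11, against 1.73% of all genes tested. BMF, a BH3-only gene, was lowest among the pro-apoptotic members (-0.73, adjusted p = 0.476) and BAD highest (0.34). Of the 4 protective members tested, BCL2 (0.58) and BCL2L1 (0.56) lay above all H1 arrays without being called. So did 18.8% of all genes tested lie above, called or not, and nothing is read from these genes. MCL1 (-0.06) overlapped, and BCL2L2 stood at 0.19. In the apoptosome list APAF1, which assembles the apoptosome, was lowest (-0.87, adjusted p = 0.344) and DFFA, the inhibitor of the apoptotic nuclease, highest (0.48). The highest death receptor was TNFRSF10B, a TRAIL receptor known as a target of both p53 and CHOP (0.72, adjusted p = 0.503). Of the relatives, SESN2 was highest (1.17, adjusted p = 0.200), with H1 cultures 0.90 apart, and CDKN1C lowest (-0.26). The cell cycle genes had a median of 0.00018 and ran from FOXM1 (-0.92, adjusted p = 0.274) to E2F1 (0.29).

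**Figure D4:**
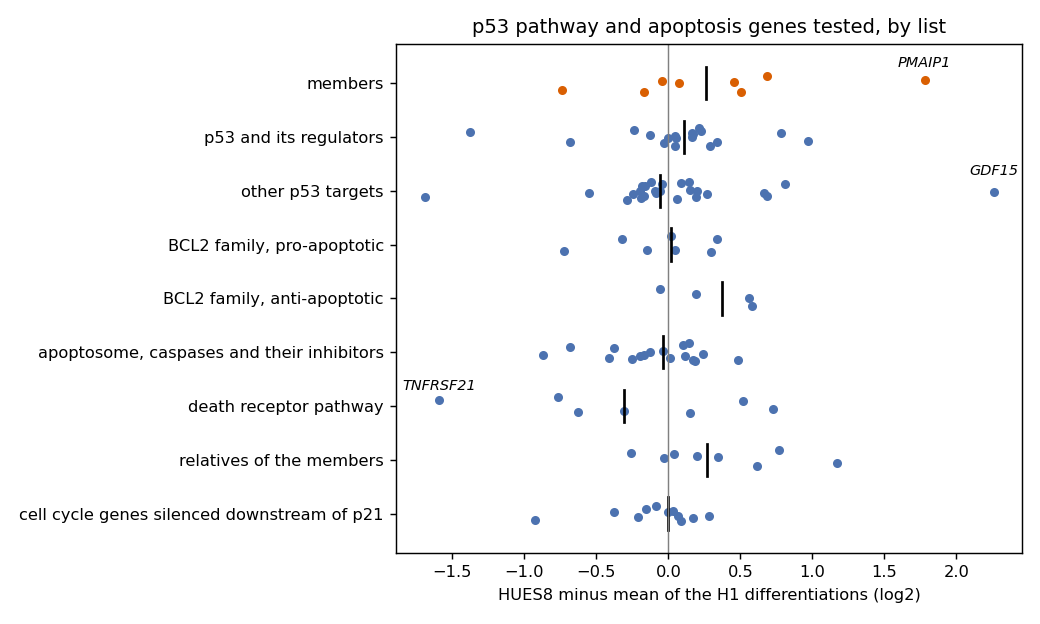
HUES8 minus the H1 mean on the log2(intensity + 20) scale for the genes tested, 1 row of points per list, with a bar at each median. PMAIP1, GDF15 and TNFRSF21 stand apart from their lists, whose medians lay between -0.31 and 0.38.

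The lines also differed in markers of other cell types and in genes of another stress response, whose part in these values was not tested. Those lists too were chosen with earlier results of these data known, so nothing is read from how many of their genes were called. The summed intensity of 12 genes of the integrated stress response was 19581 to 20176 in HUES8 and 7420 to 10910.5 in H1, and 6 of 11 tested were called higher and 0 lower. Of all genes tested, 0.49% were called higher and 1.24% lower. DDIT3, which encodes CHOP, was 2.19 higher in HUES8 (adjusted p = 0.00285) and TRIB3 3.66 higher (adjusted p = 2.3e-05). Liver and gut markers summed to 2728 to 3383 in HUES8 against 14117 to 21438 in H1, with AFP at 22.9 and 33.6 on the HUES8 arrays, and 9 of 12 were called lower. Neural markers were at 5742 to 7717 against 2631 to 4842, and the sum of 8 pluripotency markers was 4807 to 5581 against 3113 to 4379. That sum and the single genes differed in direction: the median of the 5 tested was -0.38, 3 of them lay below 0, 2 were called lower and 0 higher, and POU5F1 and NANOG stayed below 40 on all arrays.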

How the data were processed

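RNA was hybridized to Illumina Human HT-12 BeadChips, 1 array per sample. The deposited values are intensities on a linear scale, background-subtracted and normalized by the rank-invariant method by the authors (GenomeStudio), with 1 row per symbol. Which probes a row combines is not given in the sources used here, so levels were not compared between genes. Of the values 4.37% lay below 0. A second table, whose 12 columns match no sample label, was not used. Negative values were raised to 0 before taking log2(intensity + 20), the offset being that of the methods. Tested were the genes reaching 40 on 3 or more arrays (12653, 40.3%).

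Limma 3.58.1 (R 4.3.3) was fitted to processed and live samples, taking the differentiation as a block. The labels give both samples of a culture the same differentiation, and deviations from the group means correlated at 0.79, 0.62 and 0.81 within pairs. HUES8 and H1 were compared with limma on the 3 culture means (1 residual degree of freedom, with HUES8 assumed to vary like H1). That fit had 14.9 prior degrees of freedom, so the variance of a gene came mostly from all genes together. Adjusted p-values under 0.05 (Benjamini-Hochberg) were called, two-sided. The fits were tested on simulated data with 100 genes changed by a log2 difference of 1 and 100 by 2. The simulated noise was independent and normal, with spreads drawn from limma's own fitted prior. The recovery is therefore that of data which meet the model. The paired fit recovered 88% and 100% of the changed genes, with 13 false calls. In the real pairs it called 0 genes, although C3orf50, for example, had a mean difference of 1.15. A gene not called between processed and live samples may thus still have changed. The line fit recovered 18% and 97%, with 24 false calls. A gene not called between lines may therefore still differ by a log2 value of 1, and some of the genes called may be false. The 10 genes and all lists were chosen with earlier results of these data known.

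Named genes were the 10; MDM4; pathway genes called between lines; the highest and lowest of each list between lines; the 3 highest and 3 lowest in processed minus live; and INS, GCG and SST. MCL1, BID, EP300, BCL2L1 and the stress and marker genes were named after their values were seen. Alternatives were other offsets, scalings, filters, sample sets and models. Promoter windows came from RefSeq. A gene of the lists that the rule also named is not reported here. The number of arrays limits the precision.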

Additional observations from a re-analysis of the deposited data

Results flagged for a closer look

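The response of BBC3 to processing differed by -0.53 between the HUES8 pair and the mean of the H1 pairs, since both H1 pairs were above 0 and the HUES8 pair was level (-0.0020). For RRM2B that difference was 0.50, with both H1 pairs below 0 and the HUES8 pair above. The fit of the within-pair differences across all genes, in which HUES8 has 1 pair, called 0 of the 8 genes, these included, and as the genes were chosen with their values known the differences are a description. Groups of 3 samples are too small for a check of single samples.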

How the results depend on the processing

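Between processed and live samples, 0 genes were called under every offset, scaling and filter tried. The fit with no replicate block called 0 genes and 0 pathway genes, with 192 genes at an unadjusted p under 0.05, and the methods' t-test called 0 after adjustment, with 320 at that threshold. Leaving out a replicate gave 12 to 688 genes and 0 to 5 pathway genes, the highest without replicate 2 and the lowest number of genes without replicate 3. The median of the 8 genes, processed minus live, moved to 0.31 with intensities scaled to the median of all symbols, an alternative chosen after seeing the data. Between HUES8 and H1 the 219 genes called became 142 with an offset of 50, 80 with a filter on all 6 arrays, 111 in live samples, 128 in processed samples and 0 with no filter. Pathway genes called higher (1) became 0 with no filter, with the filter on all 6 arrays and in live samples. Those called lower (1) became 2 after scaling arrays to a common median and with a random block, and 0 after quantile normalization, under the scaling to all symbols, with no filter, with the filter on all 6 arrays and in either sample set alone. The median of the 8 genes, HUES8 minus H1, moved to 0.013 with the filter on all 6 arrays, which removes PMAIP1 and BBC3, to 0.05 with no filter and to 0.11 in live samples, and lay between 0.27 and 0.50 when a replicate of H1 was left out. The 33 genes called for the processing effect became 9 with an offset of 50, 5 after scaling arrays to a common median and 0 under the scaling to all symbols and with no filter. The cause of these changes was not tested, except that the filters change which genes are tested. Without 1 H1 differentiation the line test has no residual degrees of freedom and was not run. Of 148 values of single genes under alternatives, 136 stayed within 1 SD of the reported value. That SD was over the 3 pairs or over the 2 H1 differentiations. A change of filter cannot move the value of a single gene, and a turned sign can lie within 1 SD. For ZMAT3 between lines, 0.07 became -0.37 in live samples, with an SD of 0.57. The count therefore says little of how stable the values are. Genes near an intensity of 40 or below, here MDM2, FAS, PMAIP1 in H1 and BBC3 on 1 H1 array, are limited by background.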
